A study of Mus musculus with 2 samples.

Results

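The neutrophil primary granule genes Elane, Prtn3, Mpo, Ctsg and Ms4a3 were followed through 2 libraries of single immune cells taken from the mouse gingiva. They were chosen by symbol from the gene tables of both libraries and make up 5 of 32285 measured genes. The tested library is labelled Otud1-/- and its counterpart WT, both of strain C57BL/6, with 1 library per genotype. The study concerns experimental periodontitis, an inflammation of the gum, and OTUD1, an enzyme that removes ubiquitin from proteins. The number of animals pooled, their age and sex, whether both genotypes had been given periodontitis, and the deleted part of Otud1 were not stated in the labels used here. At least 1 UMI (unique molecular identifier, a tag that counts a transcript once) of these genes was found in 70 of 8109 barcodes of the library labelled Otud1-/- and in 112 of 13267 WT barcodes.

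Primary, or azurophil, granules are the first granules a neutrophil makes, during the promyelocyte stage in the bone marrow. Their transcripts are made early and then shut off, so that a mature neutrophil carries the proteins but little of the RNA. Elane encodes neutrophil elastase, Prtn3 proteinase 3 and Ctsg cathepsin G, which are related serine proteases that digest microbes and matrix proteins. Mpo encodes myeloperoxidase, which makes hypochlorous acid from hydrogen peroxide. Ms4a3 encodes a membrane protein of the MS4A family and marks granulocyte-monocyte progenitors. Secondary granules, with Camp, Ngp and Ltf products, follow at the myelocyte stage.

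The library labelled Otud1-/- held 44083735 UMIs with a median of 3716 per barcode, and the WT library held 44878537 with a median of 2241. Otud1 itself went against the label. The library labelled Otud1-/- held 1456 Otud1 UMIs (33.0 CPM, counts per library scaled to the standard common total, exact Poisson 95% interval 31.35 to 34.8) and the WT library held 834 (18.6 CPM, 17.3 to 19.9). The 3′ tags read here may lie outside the deleted part, so this does not check the genotype, and every direction below refers to the labels alone. Xist, an RNA made from the inactive X chromosome of female cells, had 5 UMIs in the library labelled Otud1-/- and 14449 in the WT library, and Y-linked genes had 10368 and 6696. The libraries thus differed in their mix of sexes, whose part in the results was not tested. The libraries shared 37 barcodes, of which 0 held at least 3 UMIs of the primary granule genes. With no replicate libraries no test was run, and all 95% intervals cover counting error only.

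In mm10 coordinates of the GENCODE annotation, Elane (ENSMUSG00000020125) lay at chr10:79886247-79888215 on the plus strand, with 5 exons, 3072 bases downstream of Prtn3. Prtn3 (ENSMUSG00000057729) lay at chr10:79874476-79883174 on the plus strand and overlapped Plppr3 on the minus strand. Mpo (ENSMUSG00000009350) lay at chr11:87793581-87804413 on the plus strand, with 14 exons, and overlapped Gm11505 on the minus strand. Ctsg (ENSMUSG00000040314) lay at chr14:56099881-56102574 on the minus strand, between the mast cell protease gene Mcpt8 and the granzyme gene Gzme. Ms4a3 (ENSMUSG00000024681) lay at chr19:11629496-11640851 on the minus strand, next to Ms4a2, which encodes a chain of the IgE receptor.

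The promoters of Elane and Prtn3, neighbouring genes found together in the barcodes described below, are shown with that of Ctsg, which was also found in another cell class. Each runs 5′ to 3′ on the gene's strand from 250 bases before the RefSeq start to 50 bases of transcribed sequence (GRCm38.p6), at chr10:79886062-79886361, chr10:79879417-79879716 and chr14:56102525-56102824 on the minus strand. Capitals mark GGAAGT, a core bound by Ets factors such as PU.1, and AACNG, a core bound by Myb factors, on either strand.
Elane: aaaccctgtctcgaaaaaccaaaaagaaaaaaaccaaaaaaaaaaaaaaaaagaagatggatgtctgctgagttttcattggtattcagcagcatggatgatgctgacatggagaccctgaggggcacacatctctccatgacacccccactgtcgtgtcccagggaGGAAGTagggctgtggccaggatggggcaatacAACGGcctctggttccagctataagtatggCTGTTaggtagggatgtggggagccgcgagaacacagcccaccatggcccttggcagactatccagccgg
Prtn3: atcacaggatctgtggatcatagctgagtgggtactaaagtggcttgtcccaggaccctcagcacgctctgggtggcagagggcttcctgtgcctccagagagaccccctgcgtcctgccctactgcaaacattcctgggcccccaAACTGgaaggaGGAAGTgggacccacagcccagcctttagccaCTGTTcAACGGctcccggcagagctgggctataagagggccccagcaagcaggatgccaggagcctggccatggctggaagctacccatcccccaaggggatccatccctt
Ctsg: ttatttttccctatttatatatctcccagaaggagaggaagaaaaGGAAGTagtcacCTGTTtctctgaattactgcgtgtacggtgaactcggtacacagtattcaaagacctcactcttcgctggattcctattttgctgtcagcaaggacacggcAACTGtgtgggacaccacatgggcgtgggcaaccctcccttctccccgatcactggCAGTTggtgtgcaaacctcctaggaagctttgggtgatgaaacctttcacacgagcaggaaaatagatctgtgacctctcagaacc
GGAAGT occurred in 5 of the 5 promoters, against 23.8% of 32851 RefSeq promoters of the same length. Counted with the start as 0, its first base lay at -83 in Elane, -93 in Prtn3, -222 in Mpo, -205 in Ctsg and -55 in Ms4a3. Ms4a3 also had a match on the opposite strand, from 17 to 22. AACNG occurred in 4 of 5, all but Ms4a3, against 80.3% of all promoters. The C/EBP-type letters TTNNGNAA occurred in 1 of 5, Ms4a3, where 1 match overlapped GGAAGT, against 40.7%, and the Runx-type core TGTGGT in 1 of 5, Ctsg, against 16.8%. The letters were chosen after the sequences had been viewed, and a match is a description of the sequence, not a bound site.

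Nearly all primary granule RNA of the library labelled Otud1-/- lay in 2 barcodes. Of its 2361 UMIs of the 5 genes, 2268 (96.1%) came from these, and the rest of the library held 93. The larger, primary granule barcode 1, had 504 Elane, 610 Prtn3, 153 Mpo, 186 Ctsg and 33 Ms4a3 UMIs among 28533 in all. The smaller, primary granule barcode 2, had 363 Elane, 291 Prtn3, 87 Mpo, 27 Ctsg and 14 Ms4a3 UMIs among 18241. The 5 genes made up 5.21% of the RNA of barcode 1 and 4.29% of that of barcode 2. The highest WT barcode held 10 UMIs of the 5 genes among 10935.

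A cutoff of 20 UMIs of the 5 genes marked these 2 of 8109 barcodes labelled Otud1-/- (0.0247%, exact Clopper-Pearson 95% interval 0.00299 to 0.0891%) and 0 of 13267 WT barcodes, which by the limit of 3 counts allows a share of up to 0.0226%. The exact interval for WT reached 0.0278%, so the intervals of the libraries overlapped. Just below the cutoff stood 1 barcode labelled Otud1-/- with 15 UMIs, all Ctsg, and 1 WT barcode with 10. The cutoff selects on these genes, so their levels in the 2 barcodes are given as a description. It takes 2 barcodes from the library labelled Otud1-/- and 0 from WT. The ratios without these barcodes are therefore lowered by the choice itself and are also a description.

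**Figure D1:**
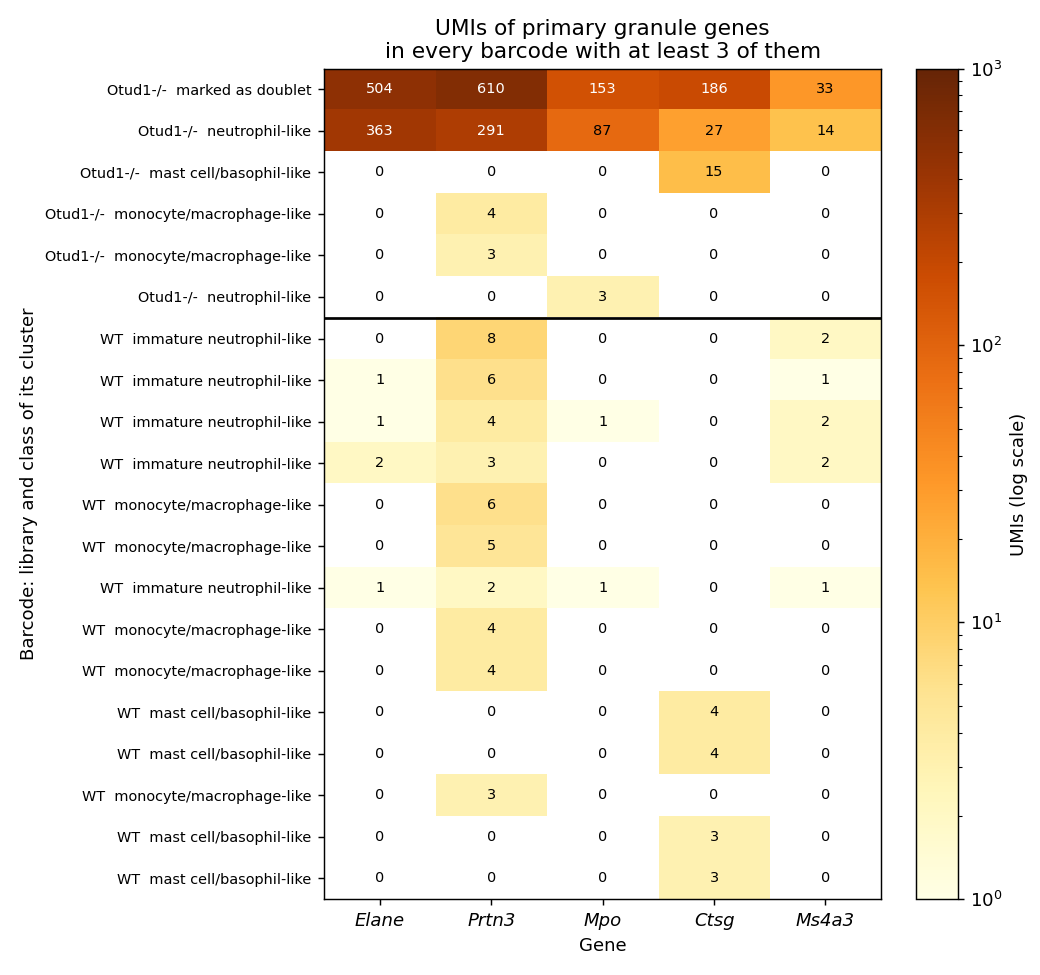
Each row is a barcode with at least 3 UMIs of the primary granule genes, named by library and the class of its cluster, each column is a gene, and cells give UMIs with colour on a log scale. All 5 genes were found together in the top 2 rows alone, both of the library labelled Otud1-/-, while the WT rows hold at most 8 UMIs of any gene.

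Elane, the elastase gene, had 869 UMIs in the library labelled Otud1-/- (19.7 CPM, 18.4 to 21.1) and 7 in the WT library (0.156 CPM, 0.0627 to 0.321). In the library labelled Otud1-/- the 4 barcodes with an Elane UMI held 504, 363, 1 and 1, and in the WT library 6 barcodes held 1 each except for 1 with 2. The library ratio was 126 (61.1 to 315). Without the 2 primary granule barcodes 2 UMIs stood against 7, a ratio of 0.291 (0.0295 to 1.53), whose interval spans equality.

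Prtn3, the proteinase 3 gene, had 951 UMIs in 43 barcodes of the library labelled Otud1-/- (21.6 CPM, 20.2 to 23.0) and 116 in 73 barcodes of the WT library (2.58 CPM, 2.14 to 3.1). The highest barcodes held 610, 291 and 4 UMIs in the library labelled Otud1-/- and 8, 6 and 6 in the WT library. The library ratio was 8.35 (6.88 to 10.2). Without the 2 barcodes, 50 UMIs stood against 116 and the ratio turned to 0.439 (0.309 to 0.617). Prtn3 was the member found in the most barcodes in both libraries.

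Mpo, the myeloperoxidase gene, had 258 UMIs in 18 barcodes labelled Otud1-/- (5.85 CPM, 5.16 to 6.61) and 17 UMIs in 17 WT barcodes (0.379 CPM, 0.221 to 0.6065). Its highest barcodes labelled Otud1-/- held 153, 87 and 3 UMIs, while every WT barcode with Mpo held 1. The ratio of 15.5 (9.46 to 26.9) came to 1.08 (0.525 to 2.23) without the 2 barcodes, at 18 UMIs against 17.

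Ctsg, the cathepsin G gene, had 233 UMIs in 8 barcodes labelled Otud1-/- (5.29 CPM, 4.63 to 6.01) and 36 in 23 WT barcodes (0.802 CPM, 0.562 to 1.11). The highest held 186, 27 and 15 UMIs in the library labelled Otud1-/- and 4, 4 and 3 in the WT library. The ratio of 6.59 (4.62 to 9.64) came to 0.566 (0.3105 to 1.005) without the 2 barcodes, at 20 UMIs against 36. Ms4a3, the progenitor marker, had 50 UMIs in 5 barcodes labelled Otud1-/- (1.13 CPM, 0.842 to 1.495), led by 33 and 14, and 8 UMIs in 5 WT barcodes (0.178 CPM, 0.0770 to 0.351). Its ratio of 6.36 (2.99 to 15.5) came to 0.382 (0.0653 to 1.59) without the 2 barcodes, at 3 UMIs against 8.

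Summed over all barcodes, 5 of 5 genes were at least 1.5-fold higher in the library labelled Otud1-/-. Of 15099 genes with at least 20 UMIs over both libraries 5.95% were that much higher and 10.1% that much lower. Without the 2 barcodes Elane and Ms4a3 had under 20 UMIs over both libraries. Of the other 3 members 0 were then at least 1.5-fold higher and 2, Prtn3 and Ctsg, at least 1.5-fold lower, where 5.93% and 10.2% of 15097 genes passed in those directions. The interval of the ratio lay wholly below equality for Prtn3 alone of the 5 genes. These calls follow a cutoff on the same genes that took no WT barcode, so no direction is drawn from them. Without the highest barcode of each gene in each library the log2 ratio was 6.22 for Elane, 1.685 for Prtn3, 2.74 for Mpo, 0.58 for Ctsg and 1.53 for Ms4a3. Of 10750 genes with at least 100 UMIs in the library labelled Otud1-/-, 0.279% had at least 50% of them in 1 barcode, and these included 4 of the 4 members that reached that depth. The highest barcode held 58.0% of Elane, 64.1% of Prtn3, 59.3% of Mpo and 79.8% of Ctsg UMIs, against a median of 0.679% over those genes. In the WT library 0.155% of genes passed, and Prtn3, the 1 member deep enough, had 6.90% of its UMIs in its highest barcode.

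**Figure D2:**
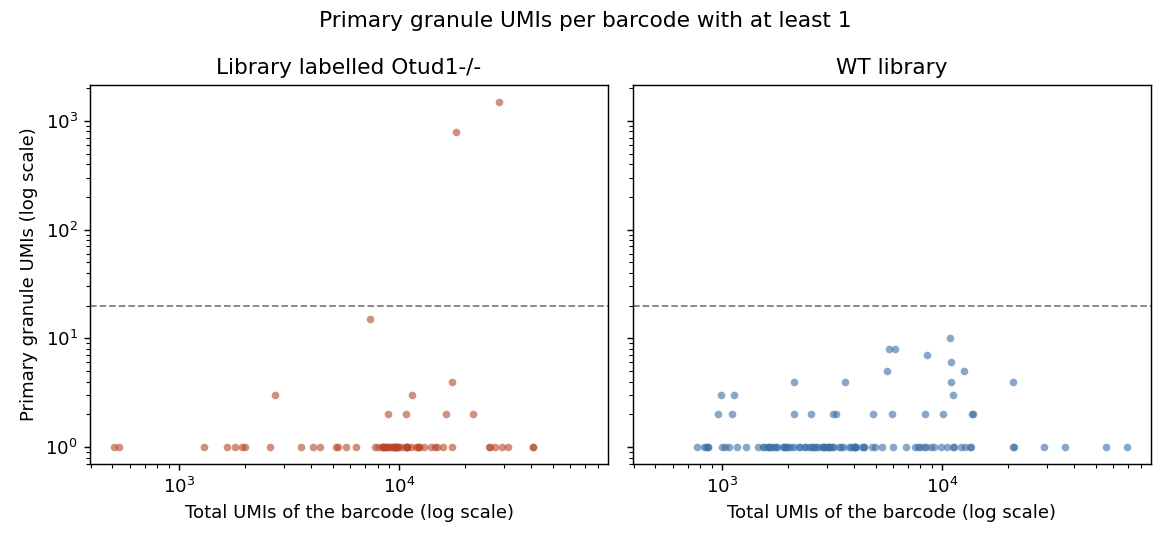
Each point is a barcode with at least 1 primary granule UMI, placed by its total UMIs and by the summed UMIs of the 5 genes, both on log axes, for the library labelled Otud1-/- (left) and WT (right). The dashed line is the cutoff of 20 UMIs, and the points at 1486 and 782 stand far above all others.

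The 2 primary granule barcodes were alike in Elane and unlike in Ctsg. Elane made up 177 UMIs per 10000 in barcode 1 and 199 in barcode 2, and Mpo 53.6 and 47.7. Prtn3 made up 214 and 160 per 10000, and Ms4a3 11.6 and 7.68. Ctsg made up 65.2 per 10000 in barcode 1 and 14.8 in barcode 2, so that Elane UMIs per Ctsg UMI were 2.71 and 13.4.

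Of 13625 genes with at least 20 UMIs in the library labelled Otud1-/-, 6 had at least 50% of them in these 2 barcodes. They were the 5 primary granule genes and Fcnb, the gene of ficolin-B, a lectin made by immature myeloid cells. Fcnb had 8 UMIs in barcode 1 and 27 in barcode 2. The next lists were compared as CPM in the 2 barcodes over the rest of their library, and 5.68% of the 13625 genes were at least 1.5-fold higher there with at least 5 UMIs.

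Among 14 genes whose products are packed with, process or restrain the granule proteases, 6 were higher in the 2 barcodes. Srgn, the gene of serglycin, the proteoglycan that holds proteases in the granule, had 170 UMIs in barcode 1 and 79 in barcode 2. Cd63, a granule membrane protein gene, had 37 and 20, and Serpinb1a, an inhibitor of elastase, proteinase 3 and cathepsin G, had 18 and 20. Prss57, a serine protease gene of the same family, had 11 and 6 UMIs, at 363 CPM in the 2 barcodes together against 0.794 CPM over their whole library and 0.691 CPM over the WT library. Nkg7, which encodes a granule membrane protein of cytotoxic cells, had 36 and 22. Lyz2 ran the other way, with 4 and 28 UMIs, at 684 CPM in the 2 together against 2555 CPM over their library. Ctsc, whose product activates these proteases, Serpinb6a and Ap3b1 were at 0 in both.

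Of 18 promyelocyte and granulocyte-monocyte progenitor genes, 9 were higher. Cebpe, a transcription factor of granulocyte maturation, had 10 UMIs in each barcode, at 428 CPM in the 2 together against 2.25 CPM over their library and 0.713 CPM over WT. Plac8 had 155 and 106 UMIs and Clec12a, a myeloid lectin receptor gene, 21 and 11. Calr, the gene of the chaperone calreticulin, had 34 in barcode 1 and 4 in barcode 2. Myb, a progenitor transcription factor gene, had 4 and 2 UMIs, at 128 CPM in the 2 together against 25.4 CPM over their library. Kit, the stem cell factor receptor gene, had 3 and 1, at 85.5 against 15.4 CPM, too few UMIs to be counted as higher, and Cd34, Cebpa and Gfi1 were at 0 in both.

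The barcodes differed in part of the secondary granule genes and in the calgranulin genes. Camp, the cathelicidin gene, had 0 UMIs in barcode 1 and 130 in barcode 2, Ngp 1 and 11, Lcn2 0 and 17, and Ltf, the lactoferrin gene, 0 in both. Chil3 had 3 and 19. Other genes of the list were found in both, Hp with 27 and 35 UMIs, Anxa1 with 7 and 9 and Ltb4r1 with 5 and 10. S100a8 had 200 and 1035 UMIs and S100a9 37 and 1603, which encode the 2 chains of calprotectin. As a list, 8 of 14 secondary granule genes were higher in the 2 barcodes together, Camp, Lcn2, Ngp and Chil3 through barcode 2 alone. Of 12 mature neutrophil genes, 2 were higher, S100a8 and, through barcode 2 alone, S100a9, while Cxcr2, Retnlg, Mmp9, Stfa2l1, Il1b and Ly6g were at 0 in both.

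Of 12 cell cycle genes 9 were higher in the 2 barcodes together, and 0 of 12 were at 0 in both. Barcode 1 held 25 Stmn1, 15 Tubb5, 12 Pcna, 6 Top2a and 5 Birc5 UMIs, and barcode 2 held 11, 2, 3, 1 and 0 of the same genes. Tubb5, Pcna, Top2a and Birc5 were at least 1.5-fold higher through barcode 1 alone. The list made up 30.1 UMIs per 10000 in barcode 1 and 14.8 in barcode 2, against 8.29 over their library. Mki67, a gene of dividing cells, ran the other way, with 1 UMI in each, at 42.8 CPM in the 2 together against 83.0 CPM over their library. Ly6c2 was the 1 of 10 monocyte lineage genes that was higher, with 25 and 63 UMIs, and the other 9, Csf1r, Irf8 and Ccr2 among them, were at 0. Of 11 basophil and mast cell genes 0 were higher, and 10 were at 0. Of 15 paralogues of the members, 10 of which had at least 20 UMIs in the library, Prss57 was the 1 detected. The eosinophil peroxidase gene Epx, Lpo, next to Mpo, and Cfd, next to Elane, were at 0. Over the whole library labelled Otud1-/- these 3 were at 0, 0.113 and 0.0454 CPM, too low for 0 UMIs in 2 barcodes to be read. The overlapping antisense genes had 1 Plppr3 UMI in barcode 1 and 0 in barcode 2, and 0 Gm11505 UMIs in both.

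Among 152 genes with at least 50 UMIs in the 2 barcodes, ranked by the ratio of CPM there over all other barcodes of both libraries, with 1 CPM added to each, the 15 highest other than the members were Camp, Wfdc21, Cd63, Hp, Nkg7, S100a8, Hmgn2, Tkt, S100a9, Gpi1, Hist1h1b, Ly6c2, Plac8, Gpx1 and Ssr4. Their ratios ran from 34.6 for Camp to 5.04 for Ssr4. Fcnb, Cebpe and Prss57, described above, had too few UMIs to be ranked. Hist1h1b, a replication histone gene, had 60 UMIs in barcode 1 and 0 in barcode 2. The lowest among genes of at least 100 CPM in the other barcodes were the class II antigen presentation genes H2-Aa, H2-Ab1 and H2-Eb1, Ighg2b and Il1b, each at 0 in both barcodes and at 1429 CPM or more in the others.

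Barcode 1 had 4319 genes detected, 4.09% mitochondrial and 31.6% ribosomal protein UMIs, and was at percentile 98.8 of its library by total UMIs. A doublet score of 0.175, at percentile 93.4, led to its removal as a possible pair of cells. Barcode 2 had 3315 genes, 1.20% mitochondrial and 26.3% ribosomal protein UMIs, was at percentile 96.2, and was kept. Of markers of other cell types, 0 of 8 T, 0 of 8 NK and 0 of 9 dendritic markers were detected in either. Of 8 B cell markers Cd79b was found, with 1 UMI in each, or 0.350 and 0.548 UMIs per 10000 for the whole B list, against 29.55 over their library. Of 11 monocyte and macrophage markers Lyz2 was found, with 4 and 28 UMIs, or 1.40 and 15.4 per 10000 for the list, against 35.3 over the library. Of 8 eosinophil markers Siglecf was found in barcode 2 alone, with 2 UMIs, or 1.10 per 10000 for the list against 0.237 over the library. With no doublet removal barcode 1 fell in an unnamed cluster of 150 cells labelled Otud1-/- and 636 WT cells, led by Esco2 and replication histone genes, and barcode 2 in a neutrophil-like cluster.

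Clusters were formed with the 5 genes left out and named by their leading markers, so "X-like" means resemblance by those markers. Of 6486 kept cells labelled Otud1-/-, 965 were neutrophil-like and 14 immature neutrophil-like, and of 11414 kept WT cells 767 and 109. Immature neutrophil-like cells were led by Ngp, Camp and Ltf, the secondary granule genes. They held 38 of the 184 WT UMIs of the 5 genes. All 38 lay in the same 5 of 109 cells, of 5621 to 10935 UMIs each, against a class median of 2379, so the class levels below rest on these 5. In these WT cells Prtn3 had 23 UMIs in 5 cells (72.4 CPM, 45.9 to 109), Ms4a3 8 in 5 cells (25.2 CPM, 10.9 to 49.6), Elane 5 in 4 cells (15.7 CPM, 5.11 to 36.7) and Mpo 2 in 2 cells (6.30 CPM, 0.763 to 22.7). Ctsg was at 0, with 3 UMIs corresponding to 9.44 CPM. In the 14 cells labelled Otud1-/- all 5 genes were at 0, where 3 UMIs would give 52.1 CPM and the exact upper limit is 64.0 CPM, within the WT interval of Prtn3. None of these cells reached 50 summed Camp, Ngp and Ltf UMIs. Of 17 barcodes labelled Otud1-/- that did, 0 were immature neutrophil-like and 14 neutrophil-like, against 9 and 3 of 13 in WT. The class thus did not hold like cells in the 2 libraries. These 14 cells depend on the clustering: without doublet removal or at Leiden resolution 0.5 the class held 0 cells labelled Otud1-/-, and at resolution 2 it held 1.

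In neutrophil-like cells, primary granule barcode 2 apart, 18 UMIs of the 5 genes were found in the library labelled Otud1-/- and 11 in the WT library. The cluster led by Stfa2l1 and Cxcr2 held 922 cells labelled Otud1-/- with 6 Prtn3 UMIs (1.38 CPM, 0.505 to 2.99) and 8 Mpo UMIs (1.83 CPM, 0.792 to 3.61). Its 469 WT cells held 5 Prtn3 UMIs (3.61 CPM, 1.17 to 8.43) and 3 Mpo UMIs (2.17 CPM, 0.447 to 6.33). The intervals overlapped for both genes. The cluster led by Wfdc21, Lcn2 and Retnlg, which held barcode 2, had 1 further Prtn3 and 2 further Ms4a3 UMIs in its 43 cells labelled Otud1-/-, and 2 Prtn3 UMIs and 1 Ctsg UMI in its 298 WT cells.

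**Figure D3:**
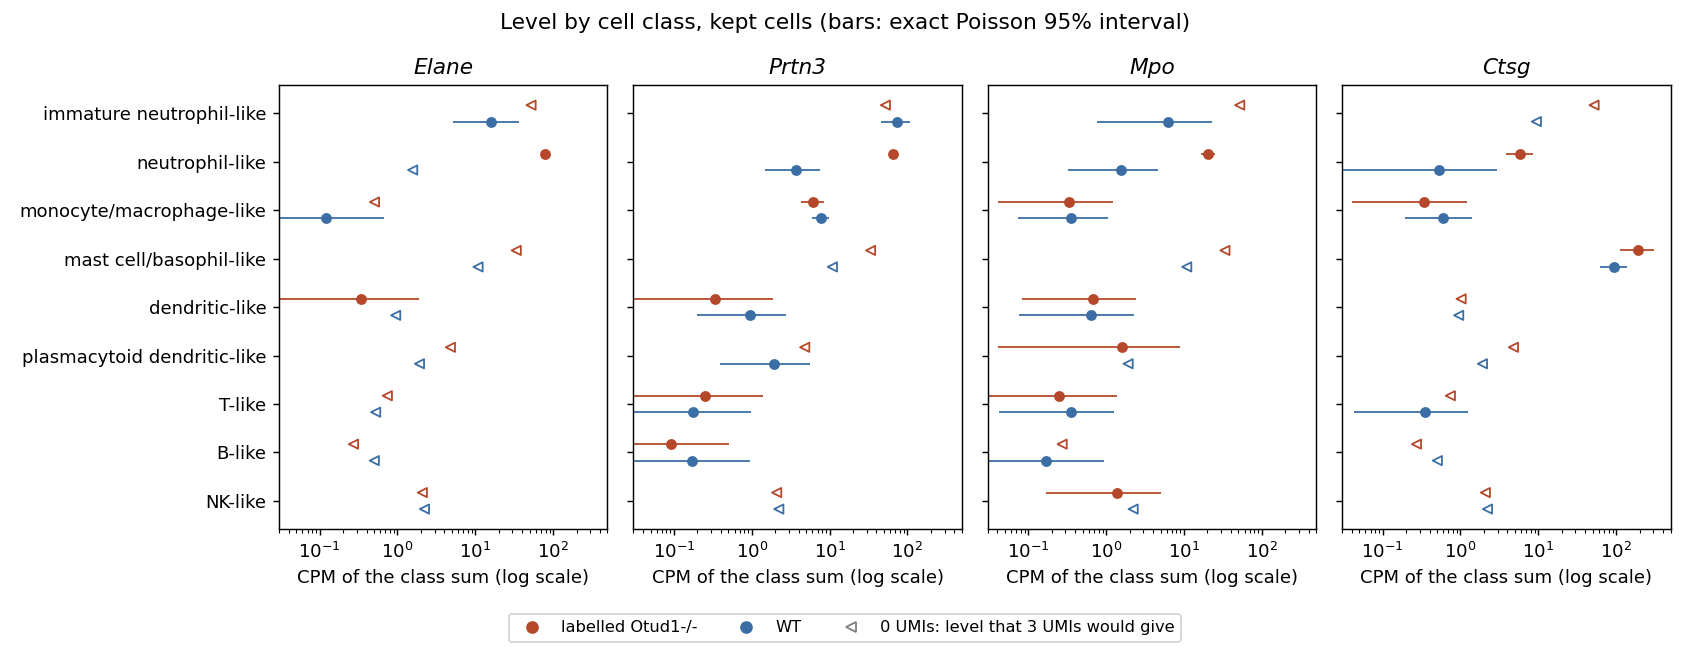
Levels of Elane, Prtn3, Mpo and Ctsg are shown by cell class as CPM of the class sum on a log axis, for the library labelled Otud1-/- (upper marker) and WT (lower marker), with exact Poisson 95% intervals as bars and open triangles at the level of 3 UMIs where none were found. Prtn3 has a level of 6.08 and 7.64 CPM in monocyte/macrophage-like cells, and Ctsg has its highest levels in mast cell/basophil-like cells.

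Because primary granule genes give way to secondary granule genes as neutrophils develop, barcodes were also chosen by at least 200 summed Camp, Ngp and Ltf UMIs, a choice made after the data had been seen and without use of the 5 genes. It gave 13 barcodes labelled Otud1-/- with a median of 17341 UMIs and 7 WT barcodes with a median of 8608. Of the 13, 11 were neutrophil-like, 1 was fibroblast-like and 1 was not kept, and of the 7, 5 were immature neutrophil-like and 2 neutrophil-like. The 13 held 3 UMIs of the primary granule genes (12.2 CPM, 2.51 to 35.6), 1 Prtn3 and 2 Ms4a3, each in a barcode of its own. The 7 WT barcodes held 39 UMIs (560 CPM, 398 to 765), 24 of Prtn3, 8 of Ms4a3, 5 of Elane and 2 of Mpo, in 6 barcodes. At a lower minimum of 100 UMIs, primary granule barcode 2 entered the library labelled Otud1-/-, which then held 785 UMIs (2801 CPM), or 11.4 CPM without it.

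The 7 WT barcodes fell into 5 with 5 to 10 primary granule UMIs and 2 with 1 and 0. The 5 held 3 to 10 Fcnb and 2 to 5 Top2a UMIs, a DNA topoisomerase gene of dividing cells. They had 0 UMIs of Retnlg, Cxcr2 and Mmp9, of the mature neutrophil list, and of Mmp8, of the secondary granule list. The other 2 had 120 and 2 Retnlg and 0 Top2a UMIs. The 13 barcodes labelled Otud1-/- held 0 or 1 primary granule UMI and 2 to 289 Retnlg UMIs each. They also held 0 to 49 Mmp8 UMIs, a gene at 0 in all 7 WT barcodes, 0 to 8 Fcnb UMIs and 0 to 4 Top2a UMIs. Y-linked UMIs were found in 13 of 13 barcodes labelled Otud1-/- and in 3 of the 7 WT barcodes, and Xist in 0 of either.

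**Figure D4:**
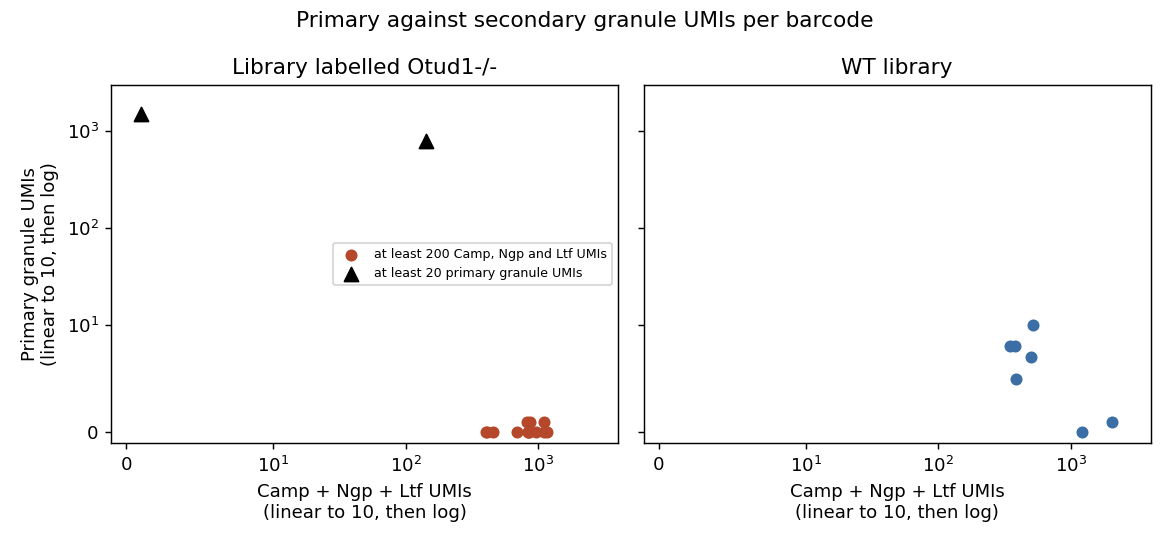
Barcodes with at least 200 summed Camp, Ngp and Ltf UMIs (circles) and the 2 primary granule barcodes (triangles) are placed by secondary granule UMIs and by summed UMIs of the 5 genes, on axes linear to 10 and logarithmic above, for the library labelled Otud1-/- (left) and WT (right). The triangles lie at 1486 and 782, the circles labelled Otud1-/- at 0 or 1, and 5 of the 7 WT circles at 5 to 10.

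**Figure D5:**
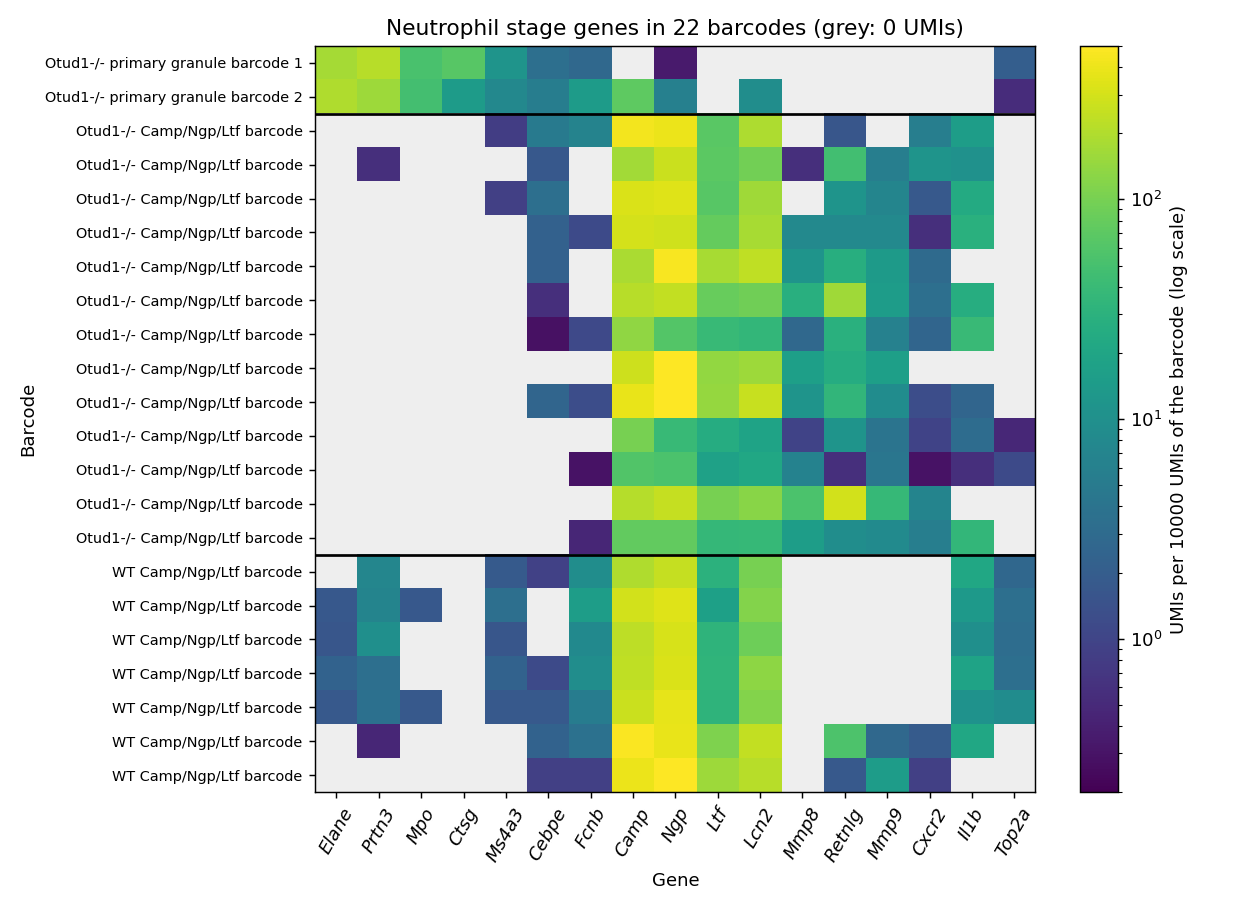
Rows are the 2 primary granule barcodes, the 13 barcodes labelled Otud1-/- and the 7 WT barcodes chosen by Camp, Ngp and Ltf, columns are genes from primary granule to late maturation and division, and colour is UMIs per 10000 of the barcode on a log scale, with grey for 0 UMIs. The primary granule barcodes are grey for Ltf and for Mmp8, Retnlg, Mmp9, Cxcr2 and Il1b, and the first 5 WT rows hold primary and secondary granule genes together.

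Prtn3 was also found in monocyte/macrophage-like cells, nearly always without the other members. It had 36 UMIs in 28 of 530 such cells labelled Otud1-/- (5.28%, 6.08 CPM, 4.26 to 8.41) and 64 UMIs in 42 of 2212 WT cells (1.90%, 7.64 CPM, 5.88 to 9.76). The ratio of the levels was 0.796 (0.514 to 1.215), and the median depth was 9670.5 UMIs in the cells labelled Otud1-/- and 2287.5 in the WT cells. These Prtn3-bearing cells held 0 Elane UMIs in the library labelled Otud1-/- and 1 in the WT library, and 0 Mpo, Ctsg and Ms4a3 UMIs in both. B-like cells, which should lack the gene, had a Prtn3 UMI in 1 of 2820 cells labelled Otud1-/- (0.0355%, 0.0907 CPM, median depth 3423 UMIs) and in 1 of 2068 WT cells (0.0484%, 0.168 CPM, median depth 2655.5 UMIs).

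Most of these Prtn3 UMIs lay in the cluster led by Vcan and F13a1, genes of classical monocytes. It held 28 Prtn3 UMIs in 21 of 242 cells labelled Otud1-/- (11.9 CPM, 7.92 to 17.2) and 49 in 30 of 847 WT cells (21.1 CPM, 15.6 to 27.9), a ratio of 0.565 (0.342 to 0.917). The macrophage cluster led by Cfb, Cxcl9 and C1qa held 8 UMIs among 199 cells labelled Otud1-/- (3.18 CPM, 1.37 to 6.27) and 11 among 878 WT cells (2.885 CPM, 1.44 to 5.16). The cluster led by Pf4 and Mrc1, genes of resident macrophages, held 0 among 89 and 4 among 487.

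Within the Vcan cluster, cells with a Prtn3 UMI had more Ly6c2, the surface marker gene of inflammatory monocytes. Its level was 2613 CPM in the 21 cells with Prtn3 against 1023 in the 221 without in the library labelled Otud1-/-, and 2569 in 30 against 1172 in 817 in the WT library. F13a1 was at 672 against 246 CPM in the library labelled Otud1-/- and at 1001 against 248 in WT. Ccr2, the chemokine receptor of blood monocytes, was at 824.5 against 498 CPM and at 967 against 531. Csf1r, the receptor of macrophage growth factor, ran the other way, at 324 against 404 CPM in the library labelled Otud1-/- and 223 against 400 in WT. Cells with Prtn3 were deeper, with a median of 9538 UMIs against 8593 in the library labelled Otud1-/- and 3522 against 1817 in WT, and the part of depth in these values was not tested.

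Ctsg had its highest class level in mast cell/basophil-like cells, a cluster led by the mast cell protease genes Mcpt4, Cpa3 and Cma1. It had 17 UMIs in 3 of 21 cells labelled Otud1-/- (190 CPM, 111 to 305) and 26 in 13 of 128 WT cells (94.05 CPM, 61.4 to 138). In the library labelled Otud1-/- 15 of the 17 lay in 1 cell of 7393 UMIs, with 486 Cma1, 392 Mcpt4 and 256 Cpa3 UMIs, and the level without it was 24.4 CPM. The highest WT cells held 4, 4, 3 and 3 UMIs. The other 4 members were at 0 in these cells in both libraries.

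The members met in the same barcode in few cells. In the library labelled Otud1-/- 68 barcodes held 1 of the 5 genes and 2 held all 5, with none between. In the WT library 106 barcodes held 1 gene, 2 held 2, 2 held 3, 2 held 4 and 0 held 5. Elane and Prtn3 were found together in 2 barcodes labelled Otud1-/- and in 5 WT barcodes. Ctsg was not found with any other member in a WT barcode.

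A share of 0.863% of barcodes labelled Otud1-/- (0.6735 to 1.09%) and 0.844% of WT barcodes (0.696 to 1.015%) had at least 1 UMI of the 5 genes, and in 60 and 86 of these barcodes it was a single UMI. When each barcode was thinned to 1000 UMIs, which left out 1154 shallower barcodes labelled Otud1-/- and 1457 WT barcodes, the share was 0.158% (0.0790 to 0.283%) in the library labelled Otud1-/- and 0.339% (0.242 to 0.461%) in the WT library. At that common depth 11 of 6955 barcodes labelled Otud1-/- and 40 of 11810 WT barcodes held a member UMI, and the same 2 barcodes labelled Otud1-/- and 0 WT barcodes still had at least 10.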

How the data were processed

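The deposited values were raw counts of UMIs per gene and cell barcode, per the file headers, from the 10x Genomics 3′ version 3.1 kit, per the labels' protocols. The submitters' processing notes name Cell Ranger 5.0.0, Seurat 3.2.3 and the mm10 build, while the file headers name Cell Ranger 6.0.1. Whether counting used strand or introns was not stated in the labels used here, and 3′ counts were not divided by transcript length.

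Members and gene lists were chosen with earlier results of these data known. UMIs were summed over all barcodes of a library and scaled to CPM. Levels carry exact Poisson, shares exact Clopper-Pearson and ratios exact conditional binomial 95% intervals. Cells placed in classes had 200 or more genes and no more than 15% mitochondrial UMIs. The automatic doublet threshold marked 3 cells labelled Otud1-/- and 0 WT cells, so the highest scores at 0.8% per 1000 barcodes were removed, 450 (6.49%) and 1355 cells (10.6%). This left 6486 cells labelled Otud1-/- (median 4170.5 UMIs) and 11414 WT cells (median 2305). Both libraries were clustered together in scanpy 1.11.5 (2000 variable genes, 30 components, 20 neighbours, Leiden resolution 1), with the 5 members and Otud1, sex-linked, immunoglobulin, T cell receptor, ribosomal and mitochondrial genes left out of the variable genes. A cluster took the class, of 20 marker sets, with the most markers, and at least 3, among its top 50 genes by CPM ratio, a rule set with the data known.

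The members were always named, as were, among genes with at least 50 UMIs in the 2 primary granule barcodes, the 15 highest by their ratio there, the 5 lowest among genes of at least 100 CPM elsewhere and, from each list, up to 5 by UMIs and those at 0. Kit, Myb, Ngp, Anxa1, Ltb4r1, Birc5, Mki67 and Cd79b were named after their values were seen. So were the genes compared within clusters or among the Camp, Ngp and Ltf barcodes. The code was checked on simulated counts. Scaling by edgeR 4.0.16 TMM factors or a median of ratios shifted every log2 ratio by 0.06 or 0.05.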

Additional observations from a re-analysis of the deposited data

How the results depend on the processing

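The library ratios rest on 2 barcodes. Leaving out barcodes by the cutoff of 20 member UMIs took these 2 and 0 WT barcodes, which lowers the ratios by the choice itself. Without the barcodes of at least 20 member UMIs, the log2 ratio (labelled Otud1-/- over WT) turned to -1.78 for Elane, -1.19 for Prtn3, -0.82 for Ctsg and -1.39 for Ms4a3 and came to 0.11 for Mpo. In kept cells after doublet removal, which drops 1 of the 2, it was 1.66 for Prtn3, 2.705 for Mpo, 0.41 for Ctsg and 1.02 for Ms4a3, and without the highest barcode of each gene and library 1.685, 2.74, 0.58 and 1.53 for the same genes. For Elane it was 5.95 and 6.22 in these, against 6.98. Kept cells held 1 such barcode labelled Otud1-/-. In WT there was 1 barcode at a minimum of 10 UMIs and 3 with at least 2 UMIs of at least 2 members.

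In kept cells labelled Otud1-/- the highest barcode held 99.5% of Elane, 86.4% of Prtn3, 84.5% of Mpo and 58.7% of Ctsg UMIs, and the 3 highest of all barcodes held 99.9%, 95.2%, 94.2% and 97.9%, and 17.2% of WT Prtn3. The share of barcodes with a member UMI was 0.158% labelled Otud1-/- and 0.339% WT after thinning, and 0.0740% and 0.106% at a minimum of 3 UMIs. Ctsg in mast cell/basophil-like cells labelled Otud1-/- was 24.4 CPM without its highest barcode.

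Genes at least 1.5-fold higher numbered 1731 at a minimum of 5 UMIs and 447 at 100, against 899, and genes at least 1.5-fold lower 2490 and 718, against 1532, since the filter sets how many genes enter. Barcodes chosen by Camp, Ngp and Ltf had 2801 member CPM labelled Otud1-/- at a minimum of 100 UMIs, where 1 primary granule barcode enters, and 345 CPM in WT at 400, an alternative chosen after seeing the data. The immature neutrophil-like class held 0 cells labelled Otud1-/- at Leiden resolution 0.5 and without doublet removal, so no level could be given there, and 1 at resolution 2, against 14. The remaining 66 values stayed within the counting error or 1.5 times of those reported. No paired analysis was possible because each genotype had 1 library without replicate numbers, and leaving out a replicate was not possible either. Depth limits the 14 immature neutrophil-like cells labelled Otud1-/- and all levels of under 3 UMIs.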
